A study of Danio rerio with 4 samples.

Results

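Translation initiation factor genes were taken as every gene of the deposited table whose symbol, in lower case, begins with eif and a digit from 1 to 6. The rule found 65 of 32057 gene identifiers. It takes in the subunits of the factors themselves and the repressors that bind eIF4E. Of the kinases that act on eIF2, it found only eif2ak1, eif2ak2 and eif2ak3. Of the 65 identifiers, 62 reached 1 TPM (a transcript level corrected for length, relative to the whole library) in at least 2 libraries and were tested. The others were eif4e1b, at 0.69 and 0.85 TPM in quadruple mutants against 0.44 and 0.27 TPM in sibling controls, eif2ak2, at 0.98 and 1.07 TPM in mutants against 0.68 and 0.80 TPM in controls, and an eif3b identifier (ENSDARG00000074213) at no more than 0.07 TPM in any library. Where identifiers share a symbol, the Ensembl identifier is given.

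Initiation is the step of translation at which a ribosome is brought to the start codon. The factor eIF2 carries the initiator tRNA to the small ribosomal subunit, which is held ready by eIF1, eIF1A, eIF3 and eIF5, while the cap-binding complex eIF4F (eIF4E, eIF4G and eIF4A) prepares the mRNA. Supply of active eIF2 and of free eIF4E are the points at which cells most often set the rate of initiation, through kinases that phosphorylate eIF2 and through binding proteins that sequester eIF4E.

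The tested embryos were zebrafish quadruple mutants, homozygous for mutations of mdm2, puma, noxa and p21, and the controls were siblings of the same batch with the puma, noxa and p21 mutations and at least 1 intact copy of mdm2. Each genotype had 2 poly-A RNA libraries of whole embryos, and embryos were raised at about 30 to a dish, with the number per library not stated. Titles name the mutants abnormal and the siblings normal and give 18 hours post-fertilization, while the tissue label reads 30 hours. Genotype and abnormal appearance cannot be told apart, the controls may mix mdm2 heterozygotes with wild types, and no label assigns the libraries of a genotype to different clutches. The p-values thus reflect only how far these libraries spread, which may be technical.

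The mutants differed from the controls over much of the transcriptome, which sets the background for the initiation factors. Among 16172 genes tested, 65.6% passed an adjusted p of 0.05 (limma, Benjamini-Hochberg), 28.0% higher and 37.7% lower in mutants, with a median change of -0.10 on the log2(TPM + 1) scale. Transcripts of mdm2, whose gene-level TPM counts mutant and intact alleles alike, stood at 1634 and 1819 TPM in mutants against 81.9 and 85.1 TPM in controls. Markers of several tissues moved as well, and their part in the results below was not tested. Of the markers matched, all 5 of neural progenitors were lower (summed level 177 and 220 TPM in mutants against 570 and 595 TPM in controls), as were 3 of 4 for neurons (39.4 and 41.8 against 83.9 and 80.5 TPM), 3 of 3 for muscle (605 and 565 against 907 and 932 TPM) and 3 of 3 for red blood cells (130 and 118 against 266 and 276 TPM). Of 5 skin markers 4 were higher and 1 lower (8046 and 7643 against 6173 and 6117 TPM), and of 4 tested yolk layer markers 3 were higher (13859 and 13816 against 12360 and 12203 TPM). None of 3 notochord markers passed (232 and 237 against 216 and 218 TPM), and of 4 tested germ cell markers 1 was higher and 1 lower (10.1 and 11.3 against 5.44 and 7.11 TPM). No matched marker was at 0 in all libraries, and in RNA from whole embryos fewer cells of a type cannot be told apart from less RNA per cell.

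Most initiation factor genes were lower in the quadruple mutants, and a small set rose. Of 62 tested, 43 fell, 6 rose and 13 did not pass, or 79.0% called against 65.6% of all tested genes. Lower calls made up 69.4% of them against 37.7% of all genes, and higher calls 9.68% against 28.0%. A filter of 5 TPM, which all 62 passed, leaves their log2 changes as they were, so it is no separate support. With it 43 were lower and 6 higher. Beside them 40.7% of all genes then tested were lower and 31.4% higher, both above the 37.7% and 28.0% of the 1 TPM filter. The median log2 change was -0.29, beside -0.10 for all tested genes. In all, the 65 genes held 10912 and 11447 TPM in mutants against 13123 and 13055 TPM in controls, so their summed level was lower in both mutant libraries. Mutant and control libraries did not overlap for 57 of the 62, where 83.3% of all tested genes did not overlap.

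Of the 62, 29 (46.8%) changed by at least 0.5 on the log2 scale in either direction, near the 49.96% of all tested genes. Changes of 2-fold were fewer. Only 5 of the risers and 3 of the genes that fell changed at least 2-fold on the log2(TPM + 1) scale, where 9.54% of all tested genes rose and 11.5% fell by as much, or 21.0% in either direction. The risers were eif4ebp1, eif4e3, eif2ak3, an eif4g3 (ENSDARG00000074331), eif1 and, under 2-fold, an eif4g2 (ENSDARG00000020377). Those that fell at least 2-fold were eif4e2, an eif4ebp3 (ENSDARG00000054916) and eif4a2. All 6 rises, but 27 of the 43 falls, were called under each of 12 alternative settings, beside the requirement of a 2-fold change. Median ratio scaling moved the median of all tested genes to 0.000443 and that of the initiation factors to -0.17, and left 29 of them lower and 7 higher, beside 32.8% lower and 32.7% higher over all tested genes. With either control library left out 29 were lower and 6 higher, beside 27.1% (without control library 1) and 27.6% (without control library 2) of all genes then tested that were lower.

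**Figure D1:**
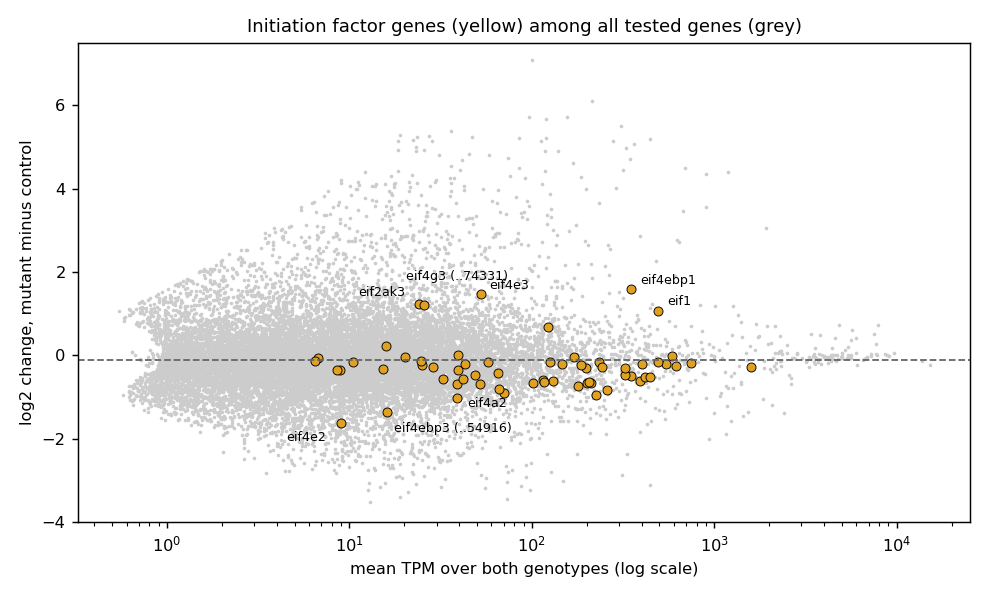
Log2 change (vertical axis, quadruple mutant minus sibling control on log2(TPM + 1)) against mean TPM over both genotypes (horizontal log axis) for the 62 tested initiation factor genes (yellow) and all 16172 tested genes (grey). Initiation factor genes lie among the more abundant transcripts, with a median of 91.0 TPM in mutants and 128 TPM in controls against 8.59 and 8.98 TPM for all tested genes, and most sit below the dashed line at the median of all genes; names mark changes of at least 2-fold.

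**Figure D2:**
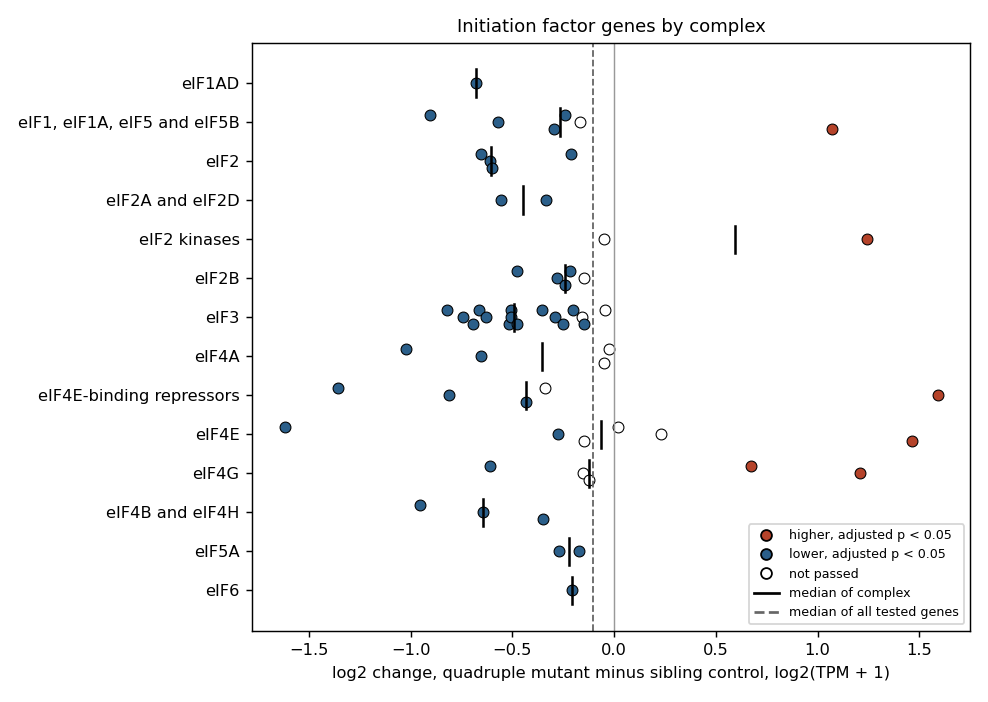
Log2 change of each tested initiation factor gene (points) by factor complex (rows), quadruple mutant minus sibling control on log2(TPM + 1); filled points passed an adjusted p of 0.05, black bars are medians of a complex and the dashed line is the median of all tested genes. The eIF2, eIF3, eIF4B and eIF4H rows, among others, lie wholly left of 0. Genes lie on both sides in the eIF4E, eIF4G, eIF4E-binding repressor and eIF2 kinase rows, and in that of eIF1, eIF1A, eIF5 and eIF5B.

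Among the factors that keep the small subunit scanning and recognise the start codon, eif1 moved against the others. The protein eIF1 guards the fidelity of start codon choice. eif1 stood at 645 and 683 TPM in mutants against 311 and 321 TPM in controls, so both mutant libraries were above both controls and the mutant mean was 2.10-fold the control mean (log2 change 1.07, SE 0.052, adjusted p = 2.9e-05). Its close relative eif1b was at 165 and 192 TPM in mutants against 219 and 218 TPM in controls (log2 change -0.29, SE 0.078, adjusted p = 0.017). Transcripts of eif1 made up the larger part of the pair in both genotypes, and the summed level of eif1 and eif1b was 810 and 875 TPM in mutants against 530 and 539 TPM in controls.

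The eIF1A genes, whose product helps the small subunit load and scan the mRNA, fell unequally. eif1axa was at 45.3 and 51.6 TPM in mutants against 93.1 and 89.7 TPM in controls (log2 change -0.90, SE 0.080, adjusted p = 0.00022). eif1axb, the more abundant copy, was at 206 and 231 TPM in mutants against 242 and 249 TPM in controls. It did not pass (log2 change -0.17, 95% interval -0.34 to 0.000487, adjusted p = 0.073), though it passed as lower under quantile normalization. Its log2 change was -0.08 without mutant library 1 and -0.25 without mutant library 2. eif5b, the GTPase that joins the ribosomal subunits, fell to 24.7 and 27.5 TPM in mutants against 37.5 and 41.2 TPM in controls (log2 change -0.57, adjusted p = 0.0020). eif5, which activates GTP hydrolysis by eIF2, fell by 0.24 on the log2 scale, to 170 and 171 TPM in mutants against 205 and 197 TPM in controls. The calls of eif5 and eif1b ended under median ratio scaling (log2 change -0.12 and -0.17) and without control library 1 (-0.21 and -0.29), and that of eif1b also without control library 2 (-0.30, adjusted p = 0.0828) and without a variance trend (adjusted p = 0.0561). eif1ad, named for an eIF1A-like domain and linked in human cells to maturation of the small subunit, was at 25.7 and 33.8 TPM in mutants against 48.9 and 46.9 TPM in controls, with a gap between the mutant libraries but no overlap (log2 change -0.68, adjusted p = 0.0046).

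All 4 genes of eIF2, the GTP-binding carrier of the initiator tRNA, fell, beside 37.7% of all tested genes. Their median log2 change was -0.60, beside -0.10 for all tested genes. The alpha subunit of eIF2, the target of the stress kinases, has 2 genes here. The eif2s1 copy ENSDARG00000052178 was at 157 and 154 TPM in mutants against 250 and 242 TPM in controls (log2 change -0.65, SE 0.051), and the copy ENSDARG00000005827 was at 91.8 and 90.3 TPM in mutants against 139 and 138 TPM in controls (-0.60, SE 0.052). The copies therefore fell by like amounts. The gamma subunit gene eif2s3b, whose product binds GTP and the tRNA, fell to 300 and 317 TPM in mutants against 466 and 477 TPM in controls (-0.61, SE 0.051, adjusted p = 0.00018). eif2s2, for the beta subunit, fell least, to 353 and 390 TPM in mutants against 436 and 424 TPM in controls (-0.21, adjusted p = 0.0245). Its adjusted p was 0.197 under median ratio scaling, 0.0505 without a filter and 0.0969 without a variance trend. The call also ended without control library 1 (-0.19) or control library 2 (-0.23). Of the factors that can bring initiator tRNA to the ribosome outside the eIF2 route, eif2a fell to 31.4 and 36.2 TPM in mutants against 48.1 and 52.1 TPM in controls (-0.56). eif2d fell to 12.2 and 14.6 TPM in mutants against 17.9 and 16.4 TPM in controls (-0.34). Its call was lost under median ratio scaling, without a filter, without a variance trend, and without mutant library 1 or either control.

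The exchange factor eIF2B, which reloads eIF2 with GTP, fell in 4 of its 5 subunit genes by smaller amounts (median log2 change -0.24). Lower calls thus made up 80% of its genes, against 37.7% of all tested genes. eif2b2 fell most, to 41.6 and 39.0 TPM in mutants against 59.8 and 53.5 TPM in controls (-0.48, SE 0.080, adjusted p = 0.0028). eif2b4 was at 24.6 and 27.1 TPM in mutants against 32.1 and 31.0 TPM in controls (-0.28), and eif2b3, for a subunit of the catalytic part, at 22.8 and 23.0 TPM in mutants against 26.9 and 27.6 TPM in controls (-0.24). Libraries of the genotypes did not overlap for any of the 5 genes, as for 83.3% of all tested genes. eif2b1 fell by 0.22 on the log2 scale, and eif2b5, for the catalytic subunit, did not pass (-0.15, adjusted p = 0.118). Of these falls, only that of eif2b2 was still called under median ratio scaling or without control library 1 or control library 2.

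The 2 eIF2 kinase genes tested, of 3 that the rule found, differed from each other. eif2ak3 encodes PERK, the kinase that answers stress in the endoplasmic reticulum, and stood at 36.1 and 32.6 TPM in mutants against 13.2 and 14.7 TPM in controls, 2.46-fold higher (log2 change 1.24, SE 0.093, adjusted p = 0.00012). Both mutant libraries lay well above both controls. eif2ak1, for the kinase known in mammals to sense heme shortage, was at 6.12 and 7.01 TPM in mutants against 6.72 and 6.94 TPM in controls, with overlapping libraries (-0.05, 95% interval -0.32 to 0.22, adjusted p = 0.698).

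eIF3, the large scaffold that holds the small subunit to the mRNA, fell across nearly all of its genes. Of 16 tested, 14 (87.5%) fell, 0 rose and 2 did not pass, where 37.7% of all tested genes fell and 28.0% rose. The median log2 change was -0.49, beside -0.10 for all tested genes. The summed level of the 17 eIF3 identifiers was 3806 and 3804 TPM in mutants against 5132 and 5033 TPM in controls. The 12 genes at 100 TPM or more in every library all fell. The largest fall was that of eif3b, a subunit that binds RNA, at 184 and 190 TPM in mutants against 336 and 326 TPM in controls (ENSDARG00000059654; log2 change -0.82, SE 0.050, adjusted p = 6.2e-05). eif3a, the largest subunit in vertebrates, was at 138 and 130 TPM in mutants against 224 and 227 TPM in controls (-0.75, SE 0.055). eif3l was at 159 and 164 TPM in mutants against 257 and 258 TPM in controls (-0.67, SE 0.050). These libraries agreed closely within each genotype and were far apart between them.

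The other eIF3 genes covered a range of falls down to little change. eif3cl, the identifier for subunit c, changed by -0.63 on the log2 scale, eif3m by -0.52, eif3i by -0.51, eif3d by -0.51 and eif3k by -0.48. Smaller falls were those of eif3g (-0.29), eif3f (-0.25), eif3ea (-0.20) and the abundant eif3h (ENSDARG00000102452; -0.15). The calls of eif3f, eif3ea and both eif3h copies ended under median ratio scaling and without control library 1. Those of eif3ea and both eif3h copies also ended without control library 2. Under median ratio scaling 10 eIF3 genes were lower, beside 32.8% of all tested genes. The median log2 change of the eIF3 genes was -0.47 without control library 1 and -0.51 without control library 2. Without a variance trend the calls of eif3f, eif3ea and eif3h ENSDARG00000102452 ended. That of this eif3h copy also ended under quantile normalization and with the replicate number as a block. Because the falls were unequal, the spread of levels among the 12 abundant subunits was 4.17-fold between the highest and the lowest in mutants against 2.96-fold in controls. eif3i, for example, ranked 4 of the 12 in mutants and 3 in controls.

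Subunit j, which is loosely bound, has 2 genes that differed. The eif3j copy ENSDARG00000012603 fell to 35.1 and 44.5 TPM in mutants against 67.3 and 62.0 TPM in controls (-0.69, SE 0.118, adjusted p = 0.0030). The copy ENSDARG00000053370 was at 17.7 and 22.1 TPM in mutants against 21.1 and 19.7 TPM in controls, with overlapping libraries (-0.05, 95% interval -0.34 to 0.25). The minor eif3h copy ENSDARG00000036116 fell by 0.36 on the log2 scale, and the minor copy eif3e did not pass (-0.16).

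**Figure D3:**
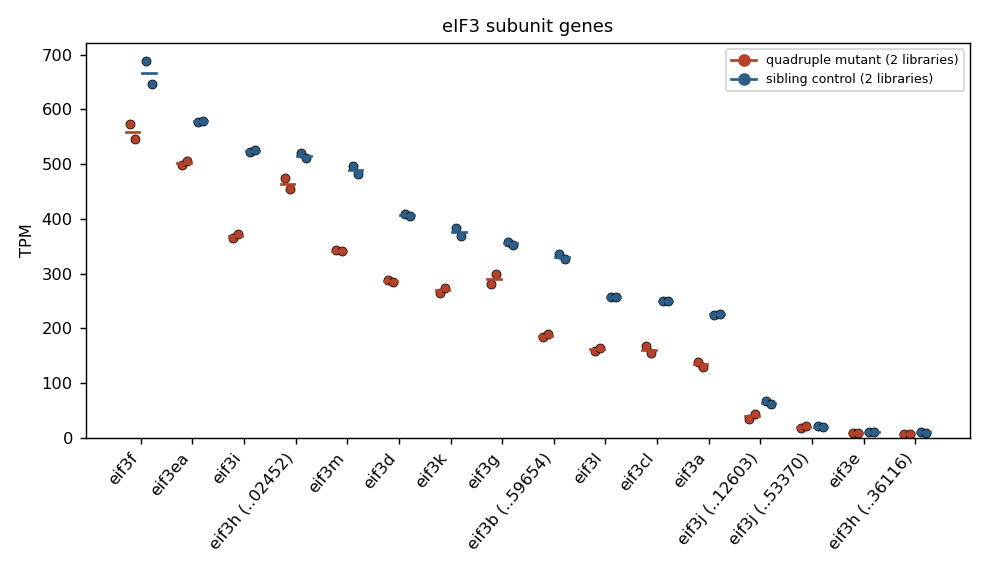
TPM of the 16 tested eIF3 genes in each library (points; bars are means of 2 libraries), quadruple mutants left of sibling controls at each gene and genes ordered by control level; digits after a symbol are the last of its Ensembl identifier. The 12 abundant genes are lower in both mutant libraries, with unequal gaps, as for eif3b (184 and 190 TPM in mutants against 336 and 326 TPM in controls) and eif3h.

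The eIF4E-binding repressors changed in both directions, with 1 gene higher and 3 lower of 5, beside 28.0% and 37.7% of all tested genes. Products of the eif4ebp genes are small proteins that compete with eIF4G for eIF4E when they are not phosphorylated. mTORC1 releases the block by phosphorylating them. eif4ebp1 was at 474 and 581 TPM in mutants against 171 and 176 TPM in controls, 3.04-fold higher (log2 change 1.59, SE 0.098, adjusted p = 6.3e-05). The mutant libraries differed from each other, and the log2 change was 1.74 without mutant library 1 and 1.44 without mutant library 2. The remaining binding protein genes all fell. eif4ebp2 was at 54.5 and 56.7 TPM in mutants against 75.01 and 75.9 TPM in controls (-0.44, adjusted p = 0.0012). The eif4ebp3 copy ENSDARG00000041607 was at 42.5 and 53.6 TPM in mutants against 82.7 and 86.6 TPM in controls (-0.81, adjusted p = 0.0013), and the copy ENSDARG00000054916 at 8.14 and 9.03 TPM in mutants against 23.8 and 23.3 TPM in controls (-1.36, SE 0.090, adjusted p = 8.0e-05). These directions were the same under every alternative tried.

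The rise of eif4ebp1 outweighed the falls of its relatives. It made up 81.8% and 83.0% of the TPM of all 4 binding protein genes in mutants against 48.5% and 48.6% in controls. Their summed level was 579 and 700 TPM in mutants against 353 and 362 TPM in controls. The gene eif4enif1, for a protein that carries eIF4E into the nucleus and restrains its use, was low. It was at 8.25 and 6.66 TPM in mutants against 10.3 and 9.10 TPM in controls and did not pass (-0.34, adjusted p = 0.0595). Its log2 change was -0.48 without mutant library 1 and -0.20 without mutant library 2.

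The eIF4E genes, which encode the cap-binding proteins, changed in both directions. Most of their TPM came from eif4e1c, which fell to 231 and 208 TPM in mutants against 266 and 264 TPM in controls (-0.27, adjusted p = 0.010; 0.106 under median ratio scaling, 0.0722 without control library 1 and 0.0645 without control library 2). eif4e3, for a divergent class of cap-binding protein, was at 76.2 and 78.3 TPM in mutants against 26.7 and 28.1 TPM in controls (log2 change 1.46, SE 0.065, adjusted p = 2.2e-05). eif4e2, whose mammalian product binds the cap without binding eIF4G and represses translation, was at 3.20 and 4.66 TPM in mutants against 14.1 and 13.9 TPM in controls (-1.62, SE 0.157, adjusted p = 0.00031). The rise of eif4e3 and the fall of eif4e2 were each larger than the gaps between that gene's libraries within a genotype. The members that did not pass were eif4e, eif4eb and eif4e2rs1. Levels of eif4e were 53.8 and 55.7 TPM in mutants against 59.7 and 61.9 TPM in controls (-0.15). Those of eif4eb were 16.3 and 18.4 TPM in mutants against 14.6 and 14.6 TPM in controls (0.23). eif4e2rs1, by its symbol a relative of eif4e2, was at 39.7 and 39.9 TPM in mutants against 38.9 and 39.6 TPM in controls (0.02). It was above eif4e2 in every library, so the fall of eif4e2 does not stand for both genes. eif4eb passed under median ratio scaling (0.34, adjusted p = 0.013), quantile normalization (0.26) and without mutant library 1 (0.31), and eif4e passed without mutant library 2 (-0.17, adjusted p = 0.0495).

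Summed over its 6 tested genes, eIF4E stood at 420 and 405 TPM in mutants against 420 and 422 TPM in controls, while the shares of its genes differed. The share of eif4e3 was 18.2% and 19.3% in mutants against 6.36% and 6.64% in controls, that of eif4e2 was 0.763% and 1.15% in mutants against 3.34% and 3.29% in controls, and that of eif4e1c was 54.9% and 51.4% in mutants against 63.4% and 62.6% in controls. The ratio of summed binding protein TPM to summed eIF4E TPM was 1.38 and 1.73 in mutants against 0.839 and 0.856 in controls, or 1.55 ± 0.247 in mutants and 0.848 ± 0.0121 in controls (SD, n = 2 each). The exact 2-sided permutation test gave p = 0.333, the smallest that 2 against 2 libraries allow. For eif4ebp1 alone the ratio was 1.13 and 1.43 in mutants against 0.407 and 0.416 in controls, and for its 3 relatives together 0.251 and 0.295 in mutants against 0.432 and 0.440 in controls. The denominator sums all 6 tested eIF4E genes, eif4e2, eif4e2rs1 and eif4e3 among them. Neither protein levels nor phosphorylation can be read from RNA sums, so the ratio does not show how much eIF4E was bound.

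**Figure D4:**
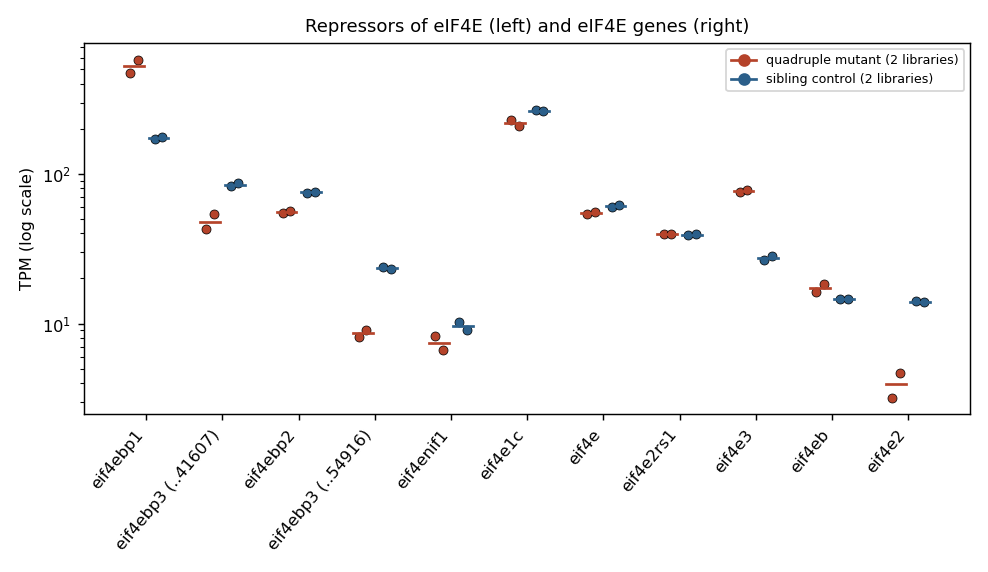
TPM (log axis) of the eIF4E-binding repressor genes (left 5) and the tested eIF4E genes (right 6) in each library (points; bars are means of 2 libraries), quadruple mutants left of sibling controls; digits after a symbol are the last of its Ensembl identifier. eif4ebp1 (474 and 581 TPM in mutants against 171 and 176 TPM in controls) and eif4e3 are higher in mutants, and eif4ebp2, both eif4ebp3 copies, eif4e1c and eif4e2 are lower.

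The scaffold eIF4G also changed in both directions. eif4g1, for the main scaffold that bridges eIF4E, eIF4A and eIF3, fell to 108 and 99.5 TPM in mutants against 162 and 155 TPM in controls (-0.61, SE 0.063, adjusted p = 0.00040). An eif4g3 copy (ENSDARG00000074331), for a related scaffold, rose to 36.8 and 35.6 TPM in mutants against 15.3 and 14.9 TPM in controls (1.21, SE 0.072, adjusted p = 5.8e-05). An eif4g2 copy (ENSDARG00000020377) rose to 151 and 152 TPM in mutants against 95.5 and 93.5 TPM in controls (0.67, SE 0.052, adjusted p = 0.00014). The mammalian product of eif4g2, DAP5, resembles eIF4G but lacks its eIF4E-binding part. The other copies did not pass, the eif4g2 identifier ENSDARG00000057167 at 111 and 128 TPM in mutants against 129 and 136 TPM in controls (-0.15, adjusted p = 0.140) and the eif4g3 identifier ENSDARG00000077215 at 6.73 and 5.60 TPM in mutants against 6.92 and 6.65 TPM in controls (-0.12). The eif4g2 identifier passed as lower under quantile normalization (-0.21) and without mutant library 2 (-0.25). The summed eIF4G level was 413 and 421 TPM in mutants against 409 and 406 TPM in controls, of which eif4g1 held 26.1% and 23.6% in mutants against 39.6% and 38.2% in controls.

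The helicase eIF4A and its helpers fell in part. eif4a2 was at 23.7 and 26.8 TPM in mutants against 49.98 and 54.5 TPM in controls (-1.02, SE 0.088, adjusted p = 0.00020). eif4a3, a component of the exon junction complex in place of initiation, was at 79.6 and 77.0 TPM in mutants against 123 and 124 TPM in controls (-0.66, adjusted p = 0.00018). The more abundant eIF4A genes did not pass. eif4a1a was at 523 and 636 TPM in mutants against 596 and 577 TPM in controls. The mutant libraries thus lay on either side of the controls (-0.02, 95% interval -0.25 to 0.21). Its log2 change was 0.12 without mutant library 1 and -0.17 without mutant library 2. eif4a1b was at 170 and 163 TPM in mutants against 177 and 168 TPM in controls (-0.05). eif4b and eif4h stimulate the helicase, and all 3 of their genes fell, beside 37.7% of all tested genes. eif4b was at 148 and 158 TPM in mutants against 306 and 288 TPM in controls (-0.95, SE 0.061, adjusted p = 7.2e-05), and eif4h at 88.8 and 92.9 TPM in mutants against 140 and 145 TPM in controls (-0.64, SE 0.057). eif4ba, the lesser eif4b copy, fell to 34.6 and 34.2 TPM in mutants against 42.3 and 46.0 TPM in controls (-0.35, adjusted p = 0.0063; 0.072 without control library 2).

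The remaining factors fell slightly. eIF5A, which carries the amino acid hypusine and keeps ribosomes moving through difficult sequences, was the most abundant product of the family at the RNA level, and eif5a fell to 1398 and 1472 TPM in mutants against 1693 and 1764 TPM in controls (-0.27, SE 0.049, adjusted p = 0.0040; 0.0506 without control library 2). eif5a2 was at 666 and 726 TPM in mutants against 789 and 780 TPM in controls (-0.17, adjusted p = 0.034). eif6, which keeps the large ribosomal subunit from joining too early, was at 134 and 136 TPM in mutants against 156 and 157 TPM in controls (-0.21, adjusted p = 0.012). The calls of eif5a2 and eif6 ended under median ratio scaling (adjusted p = 0.407 and 0.171) and without either control library. That of eif6 also ended without a variance trend. Only 1 of the 2 eIF5A genes was called without a filter, under quantile normalization or without a variance trend.

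Several subunits are encoded by a pair of genes, whose copies can be compared within a library. Over 12 pairs, chosen after the values were seen, the within-library ratio of the copies had no overlap between genotypes in 10, and its mean log2 value differed by at least 0.5 in 7. No such values were computed for pairs of other genes, and among single genes 83.3% did not overlap and 49.96% changed by at least 0.5, so nothing particular to the pairs is read from these counts. The largest differences were -1.41 for the eif4g3 pair, whose less abundant copy (ENSDARG00000077215) held 15.5% and 13.6% of the pair's TPM in mutants against 31.2% and 30.9% in controls, and -1.37 for eif1b over eif1, with eif1b at 20.4% and 21.9% in mutants against 41.3% and 40.5% in controls. In the eif4g2 pair the order of the copies turned round, since ENSDARG00000020377 held 57.6% and 54.4% in mutants against 42.5% and 40.8% in controls. Smaller shifts of the copy ratio were 0.66 for eif3j, 0.60 for eif4ba over eif4b, -0.75 for eif1axa over eif1axb and -0.63 for the eif4ebp3 pair. For eif2s1 (0.05), eif5a2 over eif5a (0.09), eif3e over eif3ea (0.03) and eif4a1b over eif4a1a (-0.03) the mean log2 ratio differed by less than 0.1, and in the eif3e and eif4a1 pairs the genotypes overlapped. Each pair's exact 2-sided permutation p was at least 0.333, the smallest possible with these libraries, and reads shared between similar copies could have been divided in ways that the values do not show.

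**Figure D5:**
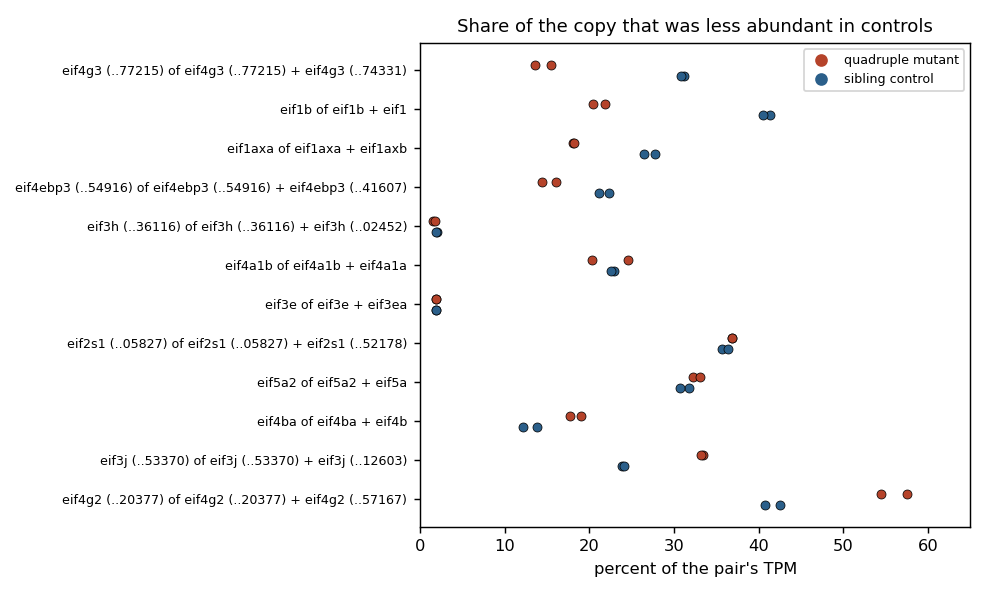
Share of a pair's TPM held by the copy that was less abundant in controls (horizontal axis, percent), for 12 pairs of genes (rows) in quadruple mutant (upper points) and sibling control libraries (lower points); digits after a symbol are the last of its Ensembl identifier. The eif1b share is 20.4% and 21.9% in mutants against 41.3% and 40.5% in controls, while the eif2s1, eif5a, eif3e and eif4a1 pairs lie close together.

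Other genes of translation were read by lists taken from textbook knowledge, but chosen with earlier results of these data known. All lists together, those of the next paragraph included, held 39 tested genes. Of these 66.7% were called, near the 65.6% of all tested genes. Lower calls made up 53.8% against 37.7% of all tested genes, and higher calls 12.8% against 28.0%. The median log2 change was -0.27, beside -0.10 for all tested genes. Of 10 tested genes on the elongation list, which includes eef2k, for the kinase that inhibits eEF2, 7 fell, 0 rose and 3 did not pass (median log2 change -0.25). They included eef1b2, for an exchange factor of eEF1A, at 884 and 874 TPM in mutants against 1535 and 1475 TPM in controls (-0.78, adjusted p = 5.1e-05), and the minor eEF2 copy eef2a.1 (-1.17). eef1g fell by 0.41. All 5 tested genes of termination and recycling fell (median -0.47), among them the recycling ATPase gene abce1 at 120 and 125 TPM in mutants against 197 and 200 TPM in controls (-0.70), the release factor gene gspt1 (ENSDARG00000098627; -0.55) and denr (-0.47). Of 12 tested genes for poly(A)-binding proteins and their partners 7 fell and 2 rose (median -0.38), with larp1, for a binder of mRNAs that encode the translation machinery, at 29.1 and 25.9 TPM in mutants against 54.4 and 53.2 TPM in controls (-0.95, adjusted p = 0.00018), pabpc4 at -0.76 and pdcd4a, for an inhibitor of eIF4A, at -0.52. The other pdcd4 copy (ENSDARG00000041022; 0.56) and paip1 (0.48), both named after their values were seen, rose.

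Of 10 tested genes for enzymes that act on the initiation factors 3 were higher, 2 lower and 5 not past the test, or 50% called against 65.6% of all tested genes and 30% higher against 28.0%. mknk2 encodes a kinase that phosphorylates eIF4E, and its copy ENSDARG00000015164 was at 97.7 and 96.9 TPM in mutants against 40.1 and 43.0 TPM in controls (1.21, SE 0.064, adjusted p = 3.9e-05). rps6kb1b, for an S6 kinase downstream of mTORC1, fell to 27.7 and 29.5 TPM in mutants against 54.9 and 53.7 TPM in controls (-0.90, adjusted p = 0.00013). Its paralogue rps6kb1a, named after its values were seen, rose to 20.6 and 21.2 TPM in mutants against 13.6 and 12.2 TPM in controls (0.66, adjusted p = 0.0011). The gene dohh, whose product completes hypusine on eIF5A, fell to 40.3 and 43.4 TPM in mutants against 65.5 and 63.9 TPM in controls (-0.62). mtor itself did not pass (-0.15, 95% interval -0.43 to 0.14). The mitochondrial initiation factor genes mtif2 (-0.37, adjusted p = 0.071) and mtif3 (0.23, adjusted p = 0.129) did not pass either.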

How the data were processed

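Whole zebrafish embryos were profiled in 4 poly-A libraries, 2 per genotype, read as pairs per the labels' protocols. The authors deposited TPM for 32057 Ensembl gene identifiers, summing to 1e+06 in each library. Per the submitters' processing notes the build was GRCz11 and the tools included RSEM 1.3.3, STAR 2.7.3a, R 4.3.3, DESeq2 1.42.1 and HTSeq 0.12.3. The sources used here do not say which of them made the TPM, nor the annotation or strand setting. Depth cannot be read from TPM, so counting error is unknown and no count model was used.

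Symbols came from a table of gene names (28988 identifiers matched) and are printed in lower case. Some zebrafish identifiers carry human-style symbols there, such as eif2s3b, eif3cl and eif4ebp3, and these were used as given. The 16172 genes that reached 1 TPM in 2 or more libraries were fitted as log2(TPM + 1) with limma 3.58.1 in R 4.3.3 (variance trend, prior degrees of freedom 3.91, residual 2) on all 4 libraries, with Benjamini-Hochberg adjustment over all tested genes and a threshold of 0.05. Changes are quadruple mutant minus sibling control, and this scale understates the change of low genes. Mutant and control library numbers are those of the titles. The fit was tested on simulated data with independent normal errors, in which few genes changed, each by at least 2-fold. That test does not cover smaller changes, or a comparison in which most genes are called. The members, lists and tests were chosen with earlier results of these data known. Per-library values are given for the 3 lowest p in each complex, calls against a complex's majority, the 6 largest changes each way, all eIF4E genes and their repressors, and up to 3 genes per other list; further genes were named after their values were seen. Ratios and figures used Python 3.11.15, scipy 1.17.1 and matplotlib 3.10.9. The alternatives changed the pseudocount (0.1 or 5 TPM), the filter (none, or 5 TPM), the scaling (by median ratios or by quantiles) and the variance model (no trend), added the replicate number as a block, required a 2-fold change, or left out each library, where a lone library is assumed to vary like the other genotype. Sequences and coordinates were not used here.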

Additional observations from a re-analysis of the deposited data

How the results depend on the processing

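The 6 rises kept their direction and passed under the 12 alternatives that set no minimum fold, as did 27 of 43 falls. The number of initiation factor genes lower in mutants was 29 under median ratio scaling, 34 without a variance trend and 39 without a filter. The number higher was 6 to 7 in all of these. With a minimum fold of 2, 3 were lower and 5 higher. Without a filter 65 initiation factor genes, and 24455 of all genes, were tested. Over all tested genes 32.8% were lower under median ratio scaling, 37.0% without a variance trend and 26.1% without a filter. The shares higher were 32.7%, 27.3% and 18.8% in the same order. With the replicate block 37.5% of all tested genes were lower and 27.6% higher. The median log2 change of the initiation factor genes was -0.17 under median ratio scaling. With a library left out it was -0.34 to -0.27, beside -0.148 to -0.0644 for all genes then tested, and the cause was not tested. No called gene changed sign. Of those not past the test 4 did, none with a call. Under median ratio scaling the log2 change was 0.0541 for eif2ak1, 0.0701 for eif3j ENSDARG00000053370, 0.0716 for eif4a1b and 0.0979 for eif4a1a, and under quantile normalization 0.0375 for eif2ak1 and 0.0136 for eif4a1a. With a library left out it was -0.137 to 0.0329 for eif2ak1, -0.200 to 0.107 for eif3j ENSDARG00000053370 and -0.165 to 0.117 for eif4a1a. The ratio of binding protein to eIF4E TPM was higher in mutants by 0.706, by 0.532 to 0.881 with a library left out and by 0.704 with untested genes included. Same-numbered libraries showed a correlation of deviations of 0.0488 across genes, so the numbers were not taken as pairs; with the replicate block 41 initiation factor genes were lower and 6 higher, 2 eIF2B genes were lower in place of 4, and eif4enif1 passed as lower (adjusted p = 0.0384). Over all genes, 4522 were higher and 6091 lower, against 3510 to 3902 and 4169 to 6115 with a library left out. Planned motif counts in promoters were not run. Depth is unknown, which limits what can be said of genes near 1 TPM.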

Other observations

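The mutant libraries lay farther apart than the control libraries in these genes. The median absolute gap between libraries of a genotype over the 62 tested initiation factor genes was 0.0931 on the log2(TPM + 1) scale in mutants and 0.0482 in controls, beside 0.130 in mutants and 0.0873 in controls over all tested genes. Mutant library 2 was the higher in 43 of the 62 genes, and in 9346 of all 16172 tested genes. The widest gaps were those of eif4e2 (3.20 TPM in mutant library 1 and 4.66 TPM in mutant library 2), eif1ad (25.7 and 33.8 TPM) and eif3j ENSDARG00000012603 (35.1 and 44.5 TPM), all of which fell with both mutant libraries below both controls. These genes were chosen for their gaps after the values were seen.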
